A study of Homo sapiens with 6 samples.

Results

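The 10 genes described here are FOXM1, MYBL2, AURKA, AURKB, PLK1, PLK4, BUB1, BUB1B, TTK and NEK2, a group made of 2 transcription factors and 8 protein kinases of mitosis. They were chosen by gene symbol from the deposited gene table, and all 10 symbols were found among its 35993 genes, each on 1 row. The libraries came from MIA PaCa-2, an established human pancreatic carcinoma cell line, and recombinant human cytoglobin (rhCYGB), a histidine-tagged heme globin made in bacteria, was the agent given. All cells were grown in DMEM with 10% FBS and 2.5% horse serum, left 24 h to attach and moved to medium with 1% FBS. The 3 rhCYGB libraries were from cells that then received 4 µM rhCYGB for 48 h, and the 3 untreated libraries were from cells without rhCYGB. The labels number the libraries 1 to 3 in each group but do not say whether they were separate cultures, so the p-values below measure the spread between these libraries, which may be technical.

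FOXM1 and MYBL2 (B-MYB) are transcription factors that switch on the genes a cell needs to enter and pass through mitosis. MYBL2 binds the MuvB core complex in S phase, FOXM1 joins the same core later, and the core itself rests on a promoter element called the cell cycle genes homology region (CHR). The Aurora kinases, the Polo-like kinases, the checkpoint kinases BUB1, BUBR1 (the product of BUB1B) and MPS1 (the product of TTK), and NEK2 build the spindle, split and duplicate the centrosomes, and hold anaphase back until every chromosome is attached. The genes are known as a proliferation signature in tumors, since their mRNA is scarce in cells that are not cycling.

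The promoter letters that MuvB and the CCAAT-binding factor NF-Y are known to read are shown, because mitotic genes are known to share them. The runs are from 4 of the genes that held such letters before a start. Each run gives the 250 bases before a RefSeq start in GRCh38.p14, on the strand of the gene and from 5′ to 3′, with CHR letters (TTTGAA or TTCGAA, or their reverse complements) and CCAAT letters (CCAAT or ATTGG) in capitals. The PLK1 run lies at chr16:23678639-23678888 on the plus strand, BUB1B at chr15:40160819-40161068 on the plus strand, BUB1 at chr2:110678064-110678313 on the minus strand and NEK2 at chr1:211675622-211675871 on the minus strand.
PLK1: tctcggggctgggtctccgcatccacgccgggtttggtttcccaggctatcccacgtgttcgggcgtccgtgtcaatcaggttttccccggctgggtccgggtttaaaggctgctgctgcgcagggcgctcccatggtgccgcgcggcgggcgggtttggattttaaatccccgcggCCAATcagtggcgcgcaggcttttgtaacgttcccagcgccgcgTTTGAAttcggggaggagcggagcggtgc
BUB1B: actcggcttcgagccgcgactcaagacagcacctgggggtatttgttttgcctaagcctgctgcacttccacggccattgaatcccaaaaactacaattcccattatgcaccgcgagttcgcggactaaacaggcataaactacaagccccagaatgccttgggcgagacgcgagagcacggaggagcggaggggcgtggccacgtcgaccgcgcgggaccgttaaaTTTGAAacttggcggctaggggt
BUB1: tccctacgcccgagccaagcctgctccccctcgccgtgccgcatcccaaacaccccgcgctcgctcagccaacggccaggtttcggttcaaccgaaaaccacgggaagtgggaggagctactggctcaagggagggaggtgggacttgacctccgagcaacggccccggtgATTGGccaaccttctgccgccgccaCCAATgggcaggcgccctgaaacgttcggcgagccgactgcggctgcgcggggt
NEK2: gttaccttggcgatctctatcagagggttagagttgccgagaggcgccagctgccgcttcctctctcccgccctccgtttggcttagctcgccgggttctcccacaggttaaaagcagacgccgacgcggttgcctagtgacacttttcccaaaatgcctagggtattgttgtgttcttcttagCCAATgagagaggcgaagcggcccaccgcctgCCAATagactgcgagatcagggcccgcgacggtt
In PLK1 the CHR letters began 29 bases before the start and a CCAAT began 73 bases before it, and in BUB1B the CHR letters began 23 bases before the start. BUB1 held CCAAT letters in opposite orientations at 79 and 54 bases before its start, and its TTCGAA, a palindrome, began at base 2 after the start, outside the run shown. NEK2 held no CHR letters but a CCAAT at 66 and at 34 bases before its start. RefSeq windows of 250 bases before and 50 bases after a start were matched for 7 of the 10 genes, in 10 windows, and none was matched for FOXM1, AURKA and TTK. CHR letters were found in 4 of these 7 genes and in 4 of the 10 windows. Of 35116 RefSeq windows of the same length, 16.35% held them. In PLK4 the match was the reverse complement TTCAAA, which began at base 39 after a start. MYBL2, not shown, held neither CHR nor CCAAT letters. CCAAT letters were found in 5 of the 7 genes and in 6 of the 10 windows, against 34.61% of all windows. The 2 AURKB windows overlap and held the same ATTGG. The shares of all windows stand beside the window counts, since a gene can have several windows. E2F-like letters were taken as TTTCCCGC, TTTGGCGC, TTTCGCGC, TTTGCCGC or TTTGGCGG, on either strand, some of which can overlap each other. They were found in 0 of the 7 genes and in 3.924% of all windows. Close variants, such as CTTGGCGG in the MYBL2 and BUB1B windows, were not counted. All these counts are matches of letters in a window and were not tested as binding sites.

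The libraries held 34838399 to 42271299 counted reads, and the 10 genes held between 549 and 10086 reads in a library, so counting error was small for all of them. The 10 genes together took 0.0979%, 0.101% and 0.104% of all counts in untreated libraries and 0.0365%, 0.0375% and 0.0374% in rhCYGB libraries. The reads are given here as CPM, counts set to a common library total, with library sizes scaled by the TMM method, whose factors were 1.057 to 1.061 in untreated and 0.932 to 0.955 in rhCYGB libraries, so the groups differed in composition as well as in these genes. Mitochondrial genes took 7.42% to 7.85% of counts in untreated and 6.74% to 7.13% in rhCYGB libraries. The epithelial keratins KRT8, KRT18 and KRT19 and the mesenchymal filament gene VIM were all expressed. Together they summed to 5726 to 5845 FPKM (fragments scaled for gene length and mapped reads) in untreated and 5982 to 6395 FPKM in rhCYGB libraries. The sum hides opposite changes. KRT8 was lower (1075 to 546 FPKM), as was KRT19 (175 to 102 FPKM), while VIM was higher (3468 to 4535 FPKM) and KRT18 was not called. The pancreatic acinar and endocrine markers PRSS1, CPA1, CELA3A, INS and GCG were at 0 in every library, as were PTPRC and CD3E of leukocytes, PECAM1 of endothelium, and DCN and LUM of fibroblasts. The fibroblast list summed to 28.9 to 31.5 FPKM in untreated and 3.48 to 3.92 FPKM in rhCYGB libraries. COL1A2 went from 26.1 to 1.12 FPKM and ACTA2 from 2.97 to 2.49 FPKM, which was not called, with 6 of its 8 markers under 1 FPKM everywhere. The endothelial list summed to 25.2 to 27.8 against 2.16 to 2.72 FPKM, almost all from CDH5 (26.9 to 2.50 FPKM). The leukocyte list summed to 21.7 to 23.5 against 34.7 to 35.2 FPKM, mostly from CD68. This sum hides opposite changes too, as CD68 was higher (19.8 to 34.9 FPKM) and CD14 was lower (2.66 to 0.104 FPKM). The part of these differences in the results below was not tested.

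All 10 genes were lower after rhCYGB, and for each of them every rhCYGB library lay below every untreated library. The falls ran from 3.59-fold for BUB1B to 1.25-fold for NEK2, with a median log2 fold change of -1.20, while the median over all 14728 genes tested was -0.0046. In the quasi-likelihood test of edgeR, with p adjusted by Benjamini-Hochberg across all tested genes, 10 of 10 were lower at an adjusted p under 0.05, the highest being 2.97e-05 for NEK2. The same call was made for 38.6% of all genes tested, and 39.7% of all genes had every rhCYGB library below every untreated library. A fall of 2-fold or more was called for 7 of the 10 genes, against 14.7% of all genes tested, and 4 of the 10 were in the lowest 10% of log2 fold changes. In these bulk libraries, fewer cells in the cell cycle stages that make these mRNAs and less of each mRNA per cell cannot be told apart.

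**Figure D1:**
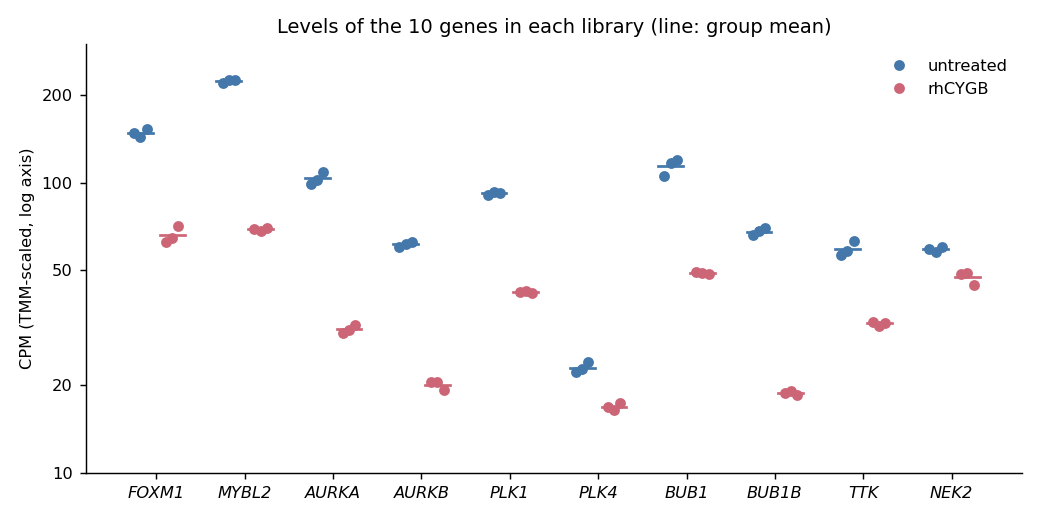
CPM (TMM-scaled, log axis) of the 10 genes in each of the 3 untreated and 3 rhCYGB libraries; points are libraries and lines are group means. The groups stand apart for every gene, widely for BUB1B (67.8 against 18.9 CPM) and narrowly for NEK2 (58.9 against 47.2 CPM).

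FOXM1, the forkhead factor of the G2/M program, lies at chr12:2966846-2986340 in the deposited positions, which are human but of a build that is not given in the sources used here. It was measured at 149, 144 and 153 CPM in untreated and at 62.5, 64.6 and 70.9 CPM in rhCYGB libraries. The untreated libraries were close together, and rhCYGB replicate 3 was the highest of its group. The level fell to 44.5% of untreated (log2 fold change -1.17, SE 0.048, edgeR adjusted p = 6.60e-12). The FOXM1 locus overlaps ITFG2 over 2112 bases and RHNO1 over 910 bases, and the strand setting of the counting is not given in the sources used here. ITFG2 was higher after rhCYGB (13.8 to 22.6 CPM) and RHNO1 was lower (61.5 to 49.4 CPM), less than FOXM1 was.

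MYBL2 (chr20:42295659-42345136) was the most abundant of the 10 genes per length (78.2 FPKM in untreated libraries). It was measured at 220.0, 225 and 226 CPM in untreated and at 69.3, 68.2 and 69.5 CPM in rhCYGB libraries, the narrowest relative spread of the untreated levels after PLK1. It fell 3.24-fold, to 30.8% of untreated (log2 fold change -1.70, SE 0.037, edgeR adjusted p = 6.35e-15). Of the 14728 genes tested, 788 had a lower log2 fold change than MYBL2 and 1749 a lower one than FOXM1.

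AURKA, the Aurora kinase of centrosome maturation and spindle poles, lies at chr20:54944445-54967393. Its level was 98.8, 102 and 109 CPM in untreated and 30.3, 31.2 and 32.4 CPM in rhCYGB libraries. It fell 3.30-fold (log2 fold change -1.72, SE 0.051, edgeR adjusted p = 1.41e-13). AURKB (chr17:8108049-8113893), the catalytic subunit of the chromosomal passenger complex at centromeres and the midzone, was at 60.1, 61.6 and 62.6 CPM in untreated and at 20.6, 20.5 and 19.3 CPM in rhCYGB libraries. The fall was 3.05-fold (log2 fold change -1.61, SE 0.052, edgeR adjusted p = 3.88e-13). AURKA ended at 30.3% and AURKB at 32.7% of its untreated level.

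PLK1 (chr16:23690210-23701688), which drives mitotic entry, centrosome maturation and cytokinesis, was at 90.3, 92.8 and 91.9 CPM in untreated and at 42.0, 42.5 and 41.7 CPM in rhCYGB libraries. The coefficient of variation was 1.37% in untreated and 0.865% in rhCYGB libraries, the smallest of the 10 genes in each group. PLK1 fell 2.18-fold (log2 fold change -1.12, SE 0.042, edgeR adjusted p = 2.05e-12). PLK4 (chr4:128802048-128820379), the kinase that starts centriole duplication, was the least abundant per length (5.60 FPKM) and was at 22.3, 22.8 and 24.0 CPM in untreated and at 16.9, 16.5 and 17.4 CPM in rhCYGB libraries. It fell to 73.5% of untreated (log2 fold change -0.44, SE 0.063, edgeR adjusted p = 1.07e-05), with the lowest untreated library at 22.3 CPM and the highest rhCYGB library at 17.4 CPM.

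BUB1B (chr15:40453210-40513337) encodes BUBR1, a part of the mitotic checkpoint complex that blocks CDC20, and had the largest fall of the 10. It was at 65.8, 68.0 and 69.7 CPM in untreated and at 18.9, 19.2 and 18.6 CPM in rhCYGB libraries, 27.9% of untreated (log2 fold change -1.84, SE 0.051, edgeR adjusted p = 6.89e-14). Of all genes tested, 637 had a lower log2 fold change. The row of the readthrough gene BUB1B-PAK6, which shares 3709 bases with BUB1B, held 0, 0 and 15 counts in untreated and 138, 0 and 29 counts in rhCYGB libraries, against 2450, 3048 and 2841 and then 702, 638 and 686 counts for BUB1B. Reads split between these rows were fewer in every library than the gap between the groups in BUB1B.

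BUB1 (chr2:111395105-111435684), the kinetochore kinase that marks centromeres for the passenger complex, was at 105, 117 and 119 CPM in untreated and at 49.2, 48.8 and 48.3 CPM in rhCYGB libraries. Untreated replicate 1 was the lowest of its group and lay well above all 3 rhCYGB libraries. BUB1 fell 2.34-fold (log2 fold change -1.22, SE 0.050, edgeR adjusted p = 6.06e-12). TTK (chr6:80714322-80752244), whose product MPS1 starts the checkpoint signal at unattached kinetochores, was at 56.4, 58.0 and 63.0 CPM in untreated and at 33.2, 32.2 and 32.8 CPM in rhCYGB libraries. Its fall of 1.81-fold was under 2-fold (log2 fold change -0.85, SE 0.053, edgeR adjusted p = 7.48e-10).

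NEK2 (chr1:211831598-211848972), the kinase that unties the linker between duplicated centrosomes, moved least. It was at 59.1, 57.5 and 60.1 CPM in untreated and at 48.4, 48.8 and 44.5 CPM in rhCYGB libraries, with rhCYGB replicate 3 the lowest. It remained at 80.2% of untreated (log2 fold change -0.32, SE 0.050, edgeR adjusted p = 2.97e-05).

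Ranked per length, the order of the 10 genes changed. In untreated libraries the mean FPKM was 78.2 for MYBL2, followed by AURKB at 47.2, AURKA at 43.1, PLK1 at 39.6, FOXM1 at 39.0, BUB1 at 28.2, NEK2 at 25.9, TTK at 18.5, BUB1B at 16.9 and PLK4 at 5.60. The ranges of AURKB and AURKA, of PLK1 and FOXM1, and of BUB1 and NEK2 overlapped, as did those of AURKA and FOXM1, so the order within these pairs was not resolved. In rhCYGB libraries MYBL2 was still highest at 21.5 FPKM, followed by NEK2 at 18.4, PLK1 at 16.2, FOXM1 at 15.5, AURKB at 13.7, AURKA at 11.5, BUB1 at 10.8, TTK at 9.16, BUB1B at 4.20 and PLK4 at 3.70. Here the ranges of PLK1 and FOXM1 and of AURKA and BUB1 overlapped. NEK2, not separable from BUB1 at ranks 6 and 7 in untreated libraries, was at rank 2 after rhCYGB, and the ratio of the highest to the lowest mean shrank from 14 to 5.82. Against all genes tested, the untreated FPKM of these genes ranged from percentile 50.6 for PLK4 to percentile 94.7 for MYBL2.

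**Figure D2:**
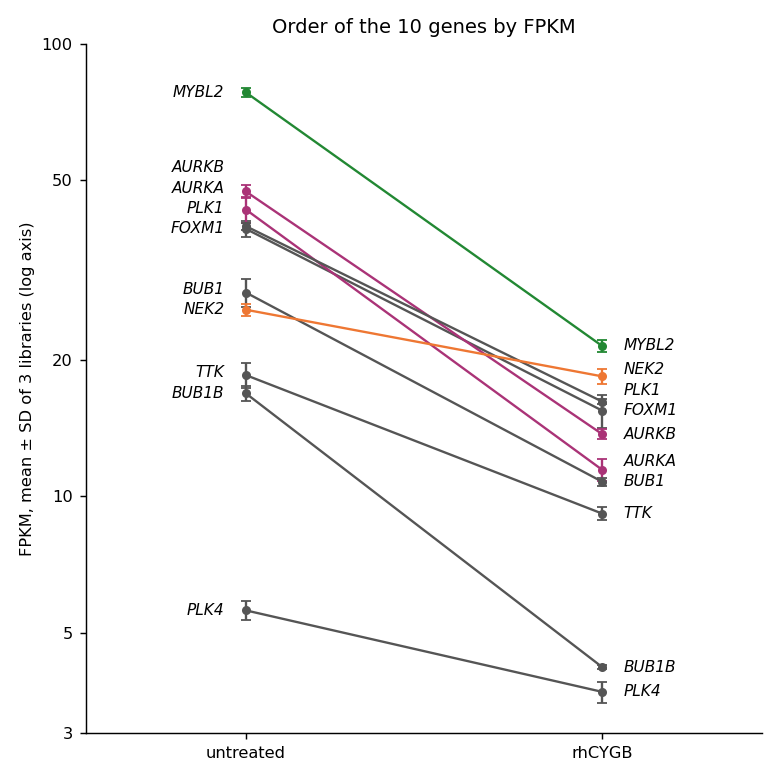
Mean FPKM (log axis) of the 10 genes in the untreated and the rhCYGB group, with SD over 3 libraries as error bars and a line joining the same gene. The line of NEK2 (25.9 to 18.4 FPKM) crosses those of AURKA, AURKB, PLK1, FOXM1 and BUB1, while BUB1B drops to near PLK4 (4.20 and 3.70 FPKM).

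The unequal falls were also seen as ratios of read counts within each library, which do not depend on how library sizes are scaled. The log2 ratio of FOXM1 to MYBL2 was -0.59 ± 0.045 (SD, n = 3) in untreated and -0.066 ± 0.090 (SD, n = 3) in rhCYGB libraries, so FOXM1 counts drew nearly level with those of MYBL2. PLK1 to PLK4 went from 1.99 ± 0.050 to 1.31 ± 0.053, and TTK to NEK2 from 0.0051 ± 0.068 to -0.53 ± 0.082. BUB1 to BUB1B rose from 0.75 ± 0.059 to 1.37 ± 0.017. In these 4 pairs the groups did not overlap, and the exact two-sided permutation test gave p = 0.1, the smallest that 3 against 3 libraries allow (0.125 after Benjamini-Hochberg adjustment over 5 pairs), so no difference of this kind could pass 0.05. AURKA to AURKB was 0.75 ± 0.045 in untreated and 0.64 ± 0.099 in rhCYGB libraries, and the groups overlapped (difference -0.11, exact permutation p = 0.3, adjusted p = 0.3).

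**Figure D3:**
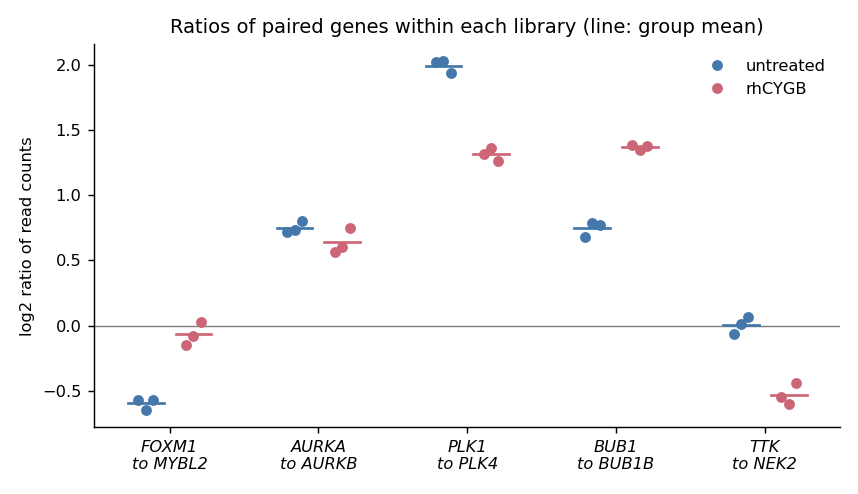
Log2 ratio of read counts for 5 pairs of related genes within each library; points are libraries and lines are group means. The untreated and rhCYGB libraries overlap for AURKA to AURKB and stand apart for the other 4 pairs, upward for FOXM1 to MYBL2 and BUB1 to BUB1B and downward for PLK1 to PLK4 and TTK to NEK2.

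The transcript table lists 40 RefSeq transcripts of these genes, and 34 of them had enough reads in enough libraries to be tested. By edgeR over 32577 transcripts, 15 transcripts in 9 of the 10 genes were lower after rhCYGB, 0 were higher, and 19 were not called, all 19 with a log2 fold change below 0. Among all transcripts tested, 14.8% were called lower and 15.1% higher. The count of higher transcripts was also 0 at an unadjusted p under 0.05, since no tested transcript of these genes had a log2 fold change above 0. PLK1 and BUB1B each have 1 annotated transcript, MYBL2 had 97.5% to 98.1% of its counts on NM_002466 in every library, and BUB1 had 99.67% to 100% on NM_004336. NM_002497 of NEK2 held 94.3% to 98.8% of that gene's counts and was lower (log2 fold change -0.36, SE 0.053, edgeR adjusted p = 0.00513). NM_003318 of TTK held 78.8% to 99.3% and was lower as well (log2 fold change -0.77, SE 0.079, edgeR adjusted p = 0.00128).

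FOXM1 was the gene with no transcript called, although its gene count fell clearly. Its transcript NM_021953 took 33.6%, 65.0% and 18.7% of the gene's counts in untreated and 80.9%, 52.6% and 71.0% in rhCYGB libraries, so the division of reads among its 5 transcripts differed widely between libraries of 1 group. AURKA, with 9 transcripts, and AURKB, with 11, were divided in the same loose way, but NM_198437 of AURKA (log2 fold change -2.86, SE 0.37, edgeR adjusted p = 0.00319) and NM_001256834 of AURKB (log2 fold change -3.02, SE 0.31, edgeR adjusted p = 0.00123) were called lower. All PLK4 reads in untreated libraries were on NM_014264. In rhCYGB libraries this share was 53.2%, 99.5% and 66.4%, with 197, 0 and 133 counts on NM_001190799 and 96, 3 and 83 counts on NM_001190801, both at 0 in the untreated libraries. Neither of these passed the filter on low counts, and rhCYGB replicate 2 hardly showed them. Both are therefore outside the 34 tested transcripts, of which 0 were called higher.

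**Figure D4:**
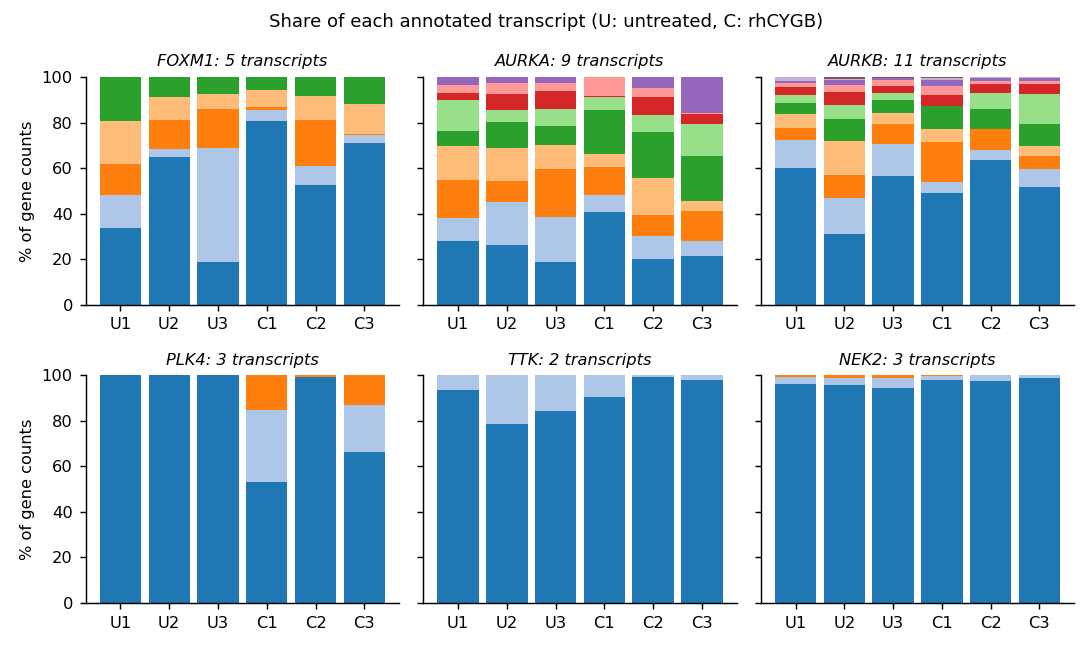
Percent of each gene's counts on each annotated transcript in the 3 untreated (U1 to U3) and 3 rhCYGB (C1 to C3) libraries, for 6 genes; each color is 1 transcript. The lowest block of FOXM1 swings within each group (18.7% to 65.0% in untreated and 52.6% to 80.9% in rhCYGB libraries), while TTK and NEK2 keep most reads on 1 transcript.

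Genes that FOXM1 and MYBL2 are known to activate were mostly lower as well. Of 31 target genes tested, 28 were lower, 1 was higher and 2 were not called, and 20 were lower by 2-fold or more. The median log2 fold change was -1.23, beside -1.20 for the 10 genes. KIF20A, a kinesin of the central spindle, fell 9.34-fold (127 ± 6.47 to 13.6 ± 0.479 CPM, SD, n = 3 each; log2 fold change -3.22, SE 0.055, edgeR adjusted p = 6.20e-16). ASPM, a spindle pole protein, fell 4.64-fold (125 ± 9.24 to 26.9 ± 2.26 CPM). The higher target was UBE2C, the E2 enzyme of the anaphase-promoting complex (172 ± 8.44 to 249 ± 11.4 CPM, log2 fold change 0.53, edgeR adjusted p = 3.18e-08), and CDC25B (0.07) and CKS2 (0.04) were not called, though both were called lower with unscaled library sizes (log2 fold changes -0.09 and -0.13). These 3 are named because they were the exceptions, after their values were seen. Among all genes tested, 38.6% were called lower and 14.7% lower by 2-fold or more. The shares called higher were 39.0% and, by 2-fold or more, 12.4%. The target list was chosen with earlier results of these data known.

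The MuvB core and the DREAM subunits, which carry FOXM1 and MYBL2 or replace them in resting cells, are a list of 11 genes. Of these, 6 were lower, 3 higher and 2 not called, against 38.6% lower and 39.0% higher of all genes tested, with a median log2 fold change of -0.31. LIN37, a subunit of the MuvB core, rose 3.31-fold (5.93 ± 0.606 to 19.6 ± 1.37 CPM, log2 fold change 1.72, SE 0.097, edgeR adjusted p = 2.23e-10). E2F5, a repressor E2F, rose 2.77-fold (7.80 ± 0.555 to 21.6 ± 0.972 CPM) and shares 471 bases with RBIS. TFDP1, the partner of the E2F proteins, fell 2.59-fold (121 ± 2.17 to 46.6 ± 1.90 CPM). The third higher gene, LIN54 (log2 fold change 0.25), was not called with unscaled library sizes (0.09), and it is named after its values were seen.

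Partners that activate or anchor the Aurora kinases mostly fell too. Of 7 genes, 6 were lower, 0 were higher and 1 was not called. The median log2 fold change was -1.04, and 4 were lower by 2-fold or more. Among all genes tested, 38.6% were lower, 39.0% higher and 14.7% lower by 2-fold or more. The lower call of HASPIN, the histone kinase that draws the passenger complex to centromeres (log2 fold change -0.21, edgeR adjusted p = 0.0315), was lost without the filter on low counts (0.0536) and on leaving out any library but untreated replicate 1 (0.0506 to 0.145), which left 5 lower. The 2797 bases of HASPIN lie inside ITGAE, and HASPIN is named after its values were seen. BIRC5 (survivin), which holds AURKB at the centromere, fell 4.63-fold (110 ± 3.05 to 23.7 ± 1.88 CPM, log2 fold change -2.21, SE 0.056, edgeR adjusted p = 2.98e-14), and INCENP, the scaffold of the same complex, fell 2.24-fold. BORA, the cofactor with which AURKA activates PLK1, fell 2.41-fold (12.4 ± 0.632 to 5.11 ± 0.895 CPM), but shares 4030 bases with DIS3, a gene with 15311 counts against 2071 for BORA. BIRC5 and TPX2 of these 7 belong to the target list as well. So do CDC20, of the checkpoint and anaphase-promoting complex lists below, and CDK1, of the mitotic kinases below. Each is counted in all its lists.

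Of 6 partners of the Polo-like kinases, 5 were lower and 1 was higher, against 38.6% lower and 39.0% higher of all genes tested. The median log2 fold change was -0.79. STIL, which binds PLK4 at the new centriole, fell 2.82-fold (61.4 ± 3.31 to 21.7 ± 0.980 CPM, log2 fold change -1.50, SE 0.057, edgeR adjusted p = 2.57e-12). CEP192 and CEP152, which recruit PLK4 to the centriole, fell 2.16-fold and 1.76-fold. The log2 fold change of STIL was -1.50 beside -0.44 for PLK4 itself, a difference that was not tested. The higher gene, named after its value was seen, was KIZ (log2 fold change 0.57), a PLK1 substrate at spindle poles.

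Of 8 partners of the checkpoint kinases, 6 were lower and 2 were higher, against 38.6% lower and 39.0% higher of all genes tested. The median log2 fold change was -0.85. ZWINT, an outer kinetochore protein, fell 4.50-fold (43.3 ± 0.497 to 9.61 ± 0.910 CPM). KNL1, the outer kinetochore platform for BUB1 and BUBR1, fell 3.95-fold (38.2 ± 1.88 to 9.66 ± 0.846 CPM). MAD2L1, the checkpoint protein that joins BUBR1 on CDC20, fell 3.44-fold (62.6 ± 3.16 to 18.2 ± 1.51 CPM, log2 fold change -1.78, SE 0.064, edgeR adjusted p = 1.33e-12). The higher genes, named after their values were seen, were MAD1L1 (log2 fold change 0.73), the anchor of MAD2L1, and MAD2L1BP (0.53), which helps take the checkpoint complex apart.

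Of 8 other kinases of mitotic entry and exit, 7 were lower and 1 was higher. HASPIN, in both lists, was among the lower ones, with the limit given above. The median log2 fold change was -0.66, and 2 were lower by 2-fold or more. Among all genes tested, 38.6% were lower, 39.0% higher and 14.7% lower by 2-fold or more. PBK fell 3.76-fold (66.8 ± 2.54 to 17.8 ± 1.18 CPM), CDK1, the kinase of mitotic entry, 2.50-fold (73.2 ± 1.11 to 29.3 ± 1.13 CPM), and PKMYT1, an inhibitor of CDK1 that shares 677 bases with PAQR4, 1.79-fold. WEE1, the other inhibitor of CDK1, was the exception and rose (30.6 ± 2.42 to 50.9 ± 0.394 CPM, log2 fold change 0.74, edgeR adjusted p = 1.40e-08). It is named after its value was seen. The anaphase-promoting complex, the ligase that the checkpoint holds back, had 11 of 17 genes lower, 3 higher and 3 not called. The median log2 fold change was -0.50. Of the 17, 3 were lower by 2-fold or more, a share near the 14.7% of all genes tested. The higher call of CDC16 (log2 fold change 0.17) was lost with unscaled library sizes (0.006). It is named after its values were seen. CDC23 fell 2.75-fold, ANAPC15 2.64-fold and FBXO5, the interphase inhibitor of the complex, 2.07-fold. CDC23 shares 74 bases with KIF20A, and ANAPC15 shares 4411 bases with LRTOMT (611 counts against 2453).

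**Figure D5:**
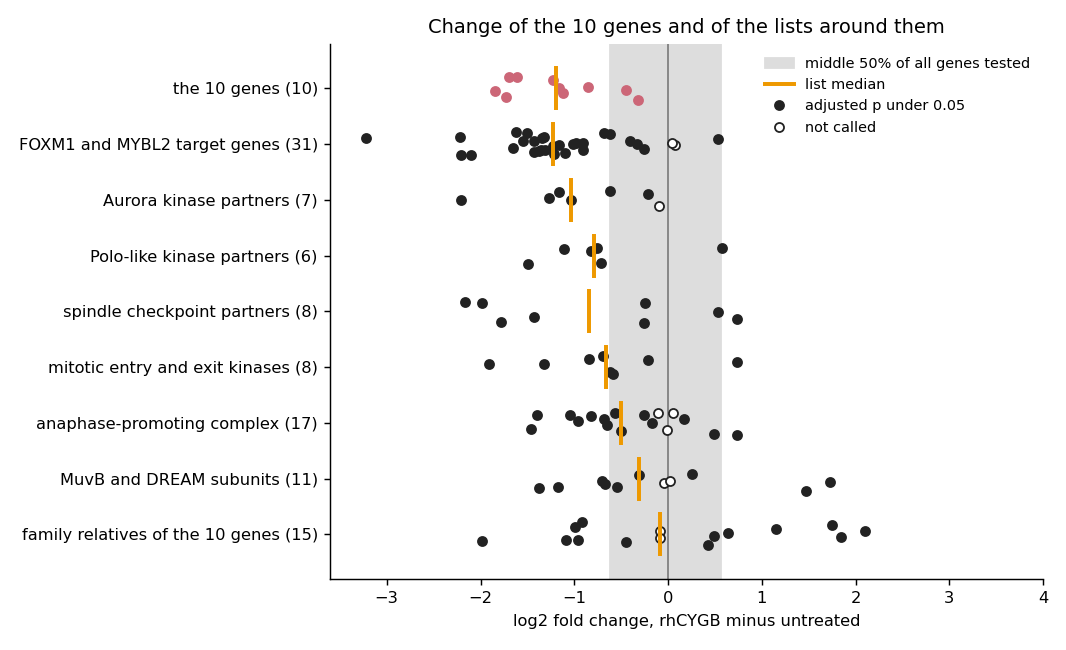
Log2 fold change (rhCYGB minus untreated) of the 10 genes and of each gene tested in 8 related lists, with the number of genes in brackets; filled points passed an adjusted p under 0.05, orange bars are list medians and the gray band is the middle of all genes tested. The 10 genes (median -1.20) and the FOXM1 and MYBL2 targets (median -1.23) lie mostly to the left of the band, and the family relatives (median -0.09) spread to both sides.

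Of 15 other Aurora, Polo-like, NEK and MYB family genes tested, most of them NEK kinases, 6 were lower, 7 higher and 2 not called. These shares were near those of all genes tested (38.6% lower and 39.0% higher). The median log2 fold change of the 15 genes was -0.09. Forkhead relatives of FOXM1 were not on this list. PLK5 did not pass the filter on low counts. The stress-induced Polo-like kinases went the other way from PLK1 and PLK4. PLK2 rose 2.22-fold from an already high level (966 ± 23.1 to 2148 ± 23.2 CPM, log2 fold change 1.15, SE 0.031, edgeR adjusted p = 4.97e-14), and PLK3 rose 4.30-fold (14.3 ± 1.15 to 61.6 ± 2.30 CPM, SE of the log2 fold change 0.063, edgeR adjusted p = 1.73e-13). Both rises held their direction and call under every scaling of the library sizes tried. AURKC, the meiotic Aurora kinase, was near absent, with 33 counts in all untreated and 105 in all rhCYGB libraries (log2 fold change 1.84, SE 0.36, edgeR adjusted p = 0.000231).

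In the MYB family, MYBL1 (A-MYB) fell 2.13-fold (65.7 ± 1.97 to 30.8 ± 1.98 CPM) beside MYBL2, while MYB was higher from a low level (5.30 ± 0.592 to 7.15 ± 0.400 CPM, log2 fold change 0.43, edgeR adjusted p = 0.00461). The MYB call was lost with total counts as library sizes (edgeR adjusted p = 0.0586) and with limma on FPKM. Of the NEK kinases, NEK3 rose 3.36-fold (9.71 ± 0.481 to 32.7 ± 0.619 CPM), and NEK7 (51.7 ± 0.961 to 80.2 ± 8.85 CPM) and NEK1 (13.2 ± 0.642 to 18.5 ± 0.574 CPM) rose by less. NEK9, which activates NEK6 and NEK7, fell 1.88-fold (153 ± 4.44 to 81.4 ± 1.17 CPM), beside the 1.25-fold fall of NEK2. NEK11 (6.85 to 3.51 CPM), NEK8 (7.28 to 5.32 CPM) and NEK5 (1.70 to 0.854 CPM) were lower at low levels. NEK10 was lower with 120 counts in all untreated and 26 in all rhCYGB libraries (log2 fold change -1.99, SE 0.58, edgeR adjusted p = 0.00584), a call that the DESeq2 Wald test did not make (adjusted p = 0.105). NEK4, which shares 2705 bases with SPCS1, and NEK6 were not called (log2 fold changes -0.09 and -0.09), and both were called lower when library sizes were left unscaled (-0.26 and -0.26).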

How the data were processed

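Paired-end libraries of MIA PaCa-2 mRNA, 3 untreated and 3 given rhCYGB, were made with a stranded kit. Per the labels, reads were checked with FastQC 0.11.7, mapped with HISAT2 2.1.0 and assembled with StringTie 2.1.3b. The authors deposited raw read counts, whole numbers, for each gene and transcript. FPKM values, scaled by the authors for length and mapped reads, were used to rank genes, and the deposited TPM values, 6 columns in each of the 2 tables, were not used. The submitters' notes list mm10, a mouse build, but the transcript identifiers are human, and a position of 249231298 on chromosome 1 lies beyond 248937099, where the last GRCh38 gene used here ends. The build of the gene positions is therefore not given, and only promoters were read from GRCh38.p14.

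Counts were fitted with edgeR 4.0.16 in R 4.3.3 (filterByExpr, TMM factors, quasi-likelihood test) on all 6 libraries without a block. Of 35993 genes, 15205 had no counts and 14728 were tested, holding 99.97% of counts, with a coefficient of variation of 5.48% between libraries. A gene was called at a Benjamini-Hochberg adjusted p under 0.05, with 2-fold as a size limit. CPM values use TMM-scaled library sizes. Each fit was run on simulated counts with a small set of known changes, balanced up and down. That does not check the scaling when as many genes change as here. The reads carry no molecular identifiers, so errors from counts cover counting only.

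The 10 genes and the lists around them were chosen with earlier results of these data known, and some target genes are among those the study shows for these libraries, so a list's count is not independent evidence of its direction. Of each list the text names the 3 genes with the largest absolute log2 fold change at a mean of at least 100 counts in the higher group, genes that went against the list's median by 2-fold or more, and all family relatives tested. Others are named as chosen after their values were seen. Alternatives were DESeq2 1.42.0, limma 3.58.1 on log2(FPKM + 1) and log2(FPKM + 0.1), other scalings and filters, a replicate block and leaving out each library.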

Additional observations from a re-analysis of the deposited data

How the results depend on the processing

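The 10 genes were all lower under each of 18 alternatives, and 7 were lower by 2-fold or more under each except total counts without scaling and limma on log2(FPKM + 0.1), which gave 8. The lowest and highest log2 fold changes over the alternatives were -2.01 and -1.78 for BUB1B and -0.49 and -0.27 for NEK2, and the highest adjusted p was 0.000545, for PLK4. The median log2 fold change of the 10 genes was -1.34 with upper-quartile factors and -1.36 with total counts, settings that moved the median of all genes to -0.15 and -0.17. It was -1.30 with limma on log2(FPKM + 1), with or without a filter, and -1.35 on log2(FPKM + 0.1). Leaving out each library in turn gave -1.22 to -1.17. The FOXM1 and MYBL2 targets called higher numbered 1 to 2 when libraries were left out, with 2 without rhCYGB replicate 2, as CDC25B then passed (log2 fold change 0.09, edgeR adjusted p = 0.0484). The other list counts stayed within 1.5 times of those given. Libraries of the same number did not deviate together (correlations -0.048, 0.0072 and 0.0055), so the numbers were not taken as pairs, and not every library correlated best with its own number. With a replicate block 10 genes were lower, 7 by 2-fold or more, with a median of -1.20, and no call among the 10 genes changed. The depth of 34838399 to 42271299 reads limits low relatives such as AURKC and NEK10 more than the 10 genes.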
